A study of Mus musculus with 6 samples.

Results

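The 10 genes described here encode 3 FOXO transcription factors (Foxo1, Foxo3 and Foxo4), the mTORC1 inhibitors Ddit4, Sesn1, Sesn2, Sesn3 and Deptor, the insulin receptor substrate Irs2 and the transcription factor Klf15. They were measured in mouse bone marrow stromal cells that had taken up apoptotic thymocytes and in unfed control cells. The genes were picked from the comparison of fed with control cells itself, because Ddit4 had the smallest p-value of all 13092 genes tested there. The differences of the 10 genes between the groups are therefore given as descriptions, with no test. All 10 were among the 53735 rows of the count table, and all 10 had enough reads to be tested.

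The question is what engulfing dead cells does to marrow stromal cells, which include precursors of osteoblasts. CD51+ stromal cells of wild-type (wt) mice, depleted of blood-lineage, CD45+ and CD31+ cells, were expanded at 2% oxygen in alpha-MEM free of ascorbic acid up to passage 2 or 3. The 3 fed libraries came from wells given 5000000 dye-labelled apoptotic thymocytes for 24 h at 5% oxygen, from which dye-positive cells were sorted. The 3 control libraries came from wells without thymocytes, whose cells were sorted as well. The oxygen level of the control wells over those 24 h and any change of their medium are not stated in the labels, so an effect of feeding cannot be told apart from an effect of oxygen or medium if these differed. From the fed wells only dye-positive cells were kept. Traits that these cells had before feeding therefore cannot be told apart from an effect of feeding either. Strain, age and sex of the mice are not given. Nothing states that the 3 libraries of a group are separate cultures or mice, so the p-values below reflect the spread among these samples alone, and that spread may be technical.

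Growth factors activate AKT through PI3K, and AKT phosphorylates FOXO factors, which then bind 14-3-3 proteins and stay outside the nucleus. When this signal is weak, FOXO factors enter the nucleus and transcribe genes of cell-cycle arrest, cell death, stress resistance and protein breakdown, among them several sestrins and Irs2. The kinase complex mTORC1 drives protein synthesis and growth, and it is restrained along separate routes. DDIT4, also called REDD1, acts through the TSC complex, sestrins bind the GATOR2 complex when amino acids are scarce, and DEPTOR binds mTOR directly. In cells of the osteoblast lineage FOXO factors are known for guarding against oxidative stress.

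The libraries held between 19069074 and 22410047 counts. Values are given as CPM, read counts scaled to a common library size with TMM, a normalization that assumes most genes do not change. Stromal markers were high in every library, with a summed level of 14 markers between 37011 and 38484 CPM in control and between 32461 and 34393 CPM in fed libraries. Of 25 thymocyte markers, 23 stayed under 1 CPM in every library, and Cd3g, Rag2, Ptcra, Cd2 and Cd5 had no count at all. The summed thymocyte markers lay between 16.3 and 17.0 CPM in control and between 14.9 and 16.9 CPM in fed libraries. Traces were seen in fed cells, where the recombinase gene Rag1 had 7, 6 and 12 counts against 0, 2 and 1 in control. The summed level of 16 macrophage markers was between 14.1 and 15.6 CPM in control and between 21.1 and 22.9 CPM in fed libraries, with 12 of the 16 under 1 CPM throughout. The part of these traces in the differences below was not tested. In such bulk samples fewer cells expressing a gene and less RNA per cell cannot be told apart.

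Of the 10 genes, 7 were called lower in fed cells, 1 (Foxo1) was called higher and 2 (Deptor and Irs2) were not called at an adjusted p under 0.05. The same rule called 39.5% of all genes tested, 19.0% lower and 20.5% higher. The values of the groups did not overlap for 9 of the 10 genes, which was also so for 49.1% of all genes tested. The median log2 fold change was -0.33 over the 10 genes and -0.01 over all genes tested. Since the genes were picked from this contrast, these counts describe them and support nothing further.

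**Figure D1:**
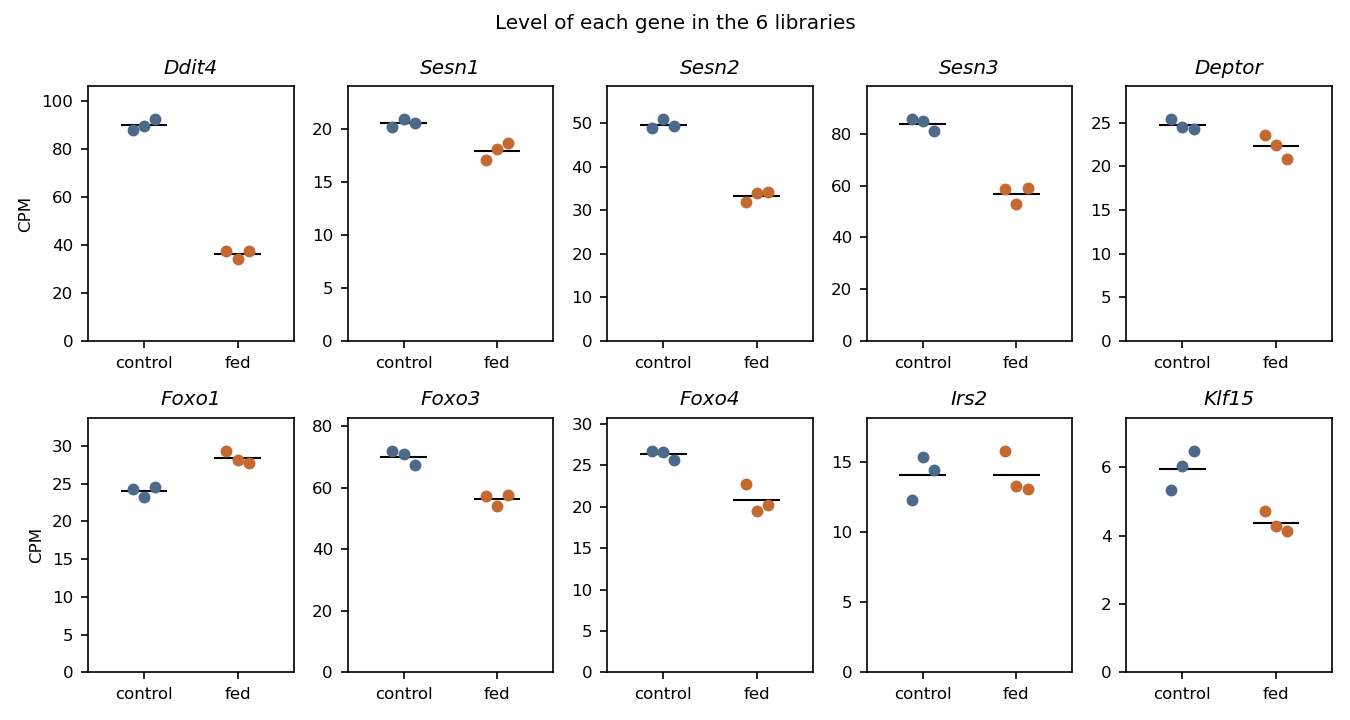
CPM of each of the 10 genes (vertical axis, starting at 0, its scale differs by panel) in the 3 control and 3 fed libraries, with 1 point per library and a line at the group mean. Ddit4 is lower in fed cells by the widest margin, Foxo1 is the gene whose fed points all lie above control, and the points of Irs2 overlap.

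Ddit4 had 87.9, 89.6 and 92.4 CPM in the control libraries and 37.3, 34.4 and 37.4 CPM in the fed libraries. The fed values lay close together and far below every control value. The mean went from 90.0 ± 2.27 to 36.4 ± 1.74 CPM (SD, n = 3), which left 40.4% of the control level, a log2 fold change of -1.31 ± 0.046 (SE). By the size of its fold Ddit4 stood at place 50 among the 13092 genes, counted from the most negative, so its first place by p also reflects its small spread. The gene next to it in the order of p was Lcn2, which encodes the iron-siderophore carrier lipocalin 2, with 106 ± 2.07 CPM in control and 203 ± 5.92 CPM in fed cells. Without any one of the 6 libraries, and under the 9 other normalizations, filters and models, Ddit4 still had the smallest p. These refits reuse the counts from which the genes were picked, so they describe the pick and add no support to it.

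Ddit4 is a compact gene on chromosome 10 (59949669 to 59951834, minus strand, GRCm38) with 1 annotated transcript of 1755 bases, and no other annotated gene overlaps it. It is known as a gene induced by low oxygen, glucocorticoids, p53 and the stress factor ATF4. Its promoter is shown because it is the start region of the gene with the widest difference. The window runs from 250 bases before to 50 bases after the start (RefSeq, GRCm38.p6, chr10:59951721-59952020, minus strand), and capitals mark the core letters of a hypoxia response element, ACGTG or GCGTG.
Ddit4: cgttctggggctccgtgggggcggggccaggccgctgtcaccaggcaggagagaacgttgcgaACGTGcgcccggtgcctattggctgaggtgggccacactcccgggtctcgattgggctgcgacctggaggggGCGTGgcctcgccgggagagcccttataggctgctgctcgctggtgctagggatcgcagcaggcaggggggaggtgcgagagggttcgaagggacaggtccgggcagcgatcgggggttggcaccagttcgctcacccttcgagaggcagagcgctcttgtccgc
The script found 2 such cores, at 187 and 115 bases before the start. Counting both strands, 43.8% of 32851 promoter windows of this length hold at least 1, so the match by itself is common. On the same count the window of Foxo1 holds 1, those of Foxo3 and Irs2 hold 3 each and that of Klf15 holds 8. The windows of Sesn2 and Sesn3 hold none.

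The 5 genes whose level followed that of Ddit4 most closely over the 6 libraries were Rtn4rl2, Pfkl, Gcnt2, Fosl2 and Slc38a2. Their Pearson correlations of log2 CPM with Ddit4 were between 0.998 and 0.999 among 10134 genes compared. These values describe 6 points in 2 groups, and any gene with a steady difference between the groups scores high. Slc38a2, an amino acid transporter, had 439 ± 2.67 CPM in control and 342 ± 5.60 CPM in fed cells. Fosl2, a subunit of the AP-1 transcription factor, had 376 ± 2.82 and 253 ± 5.78 CPM. Rtn4rl2, a Nogo receptor homologue, had 52.7 ± 0.848 and 33.1 ± 0.817 CPM, and Gcnt2, a glycosyltransferase, had 75.8 ± 0.326 and 55.5 ± 1.28 CPM. Pfkl, with 549 ± 1.78 and 444 ± 6.78 CPM, is the liver-type phosphofructokinase of glycolysis.

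All sestrin genes were lower in fed cells. Sestrins are stress-induced proteins that hold back mTORC1, and sestrin 2 is a sensor of leucine. Sesn2 had 48.7, 50.9 and 49.3 CPM in control and 32.0, 33.8 and 34.1 CPM in fed libraries, a log2 fold change of -0.57 ± 0.050 (SE). Sesn3, a FOXO target, had 85.7, 85.2 and 81.2 CPM in control and 58.6, 53.1 and 59.0 CPM in fed libraries, a log2 fold change of -0.56 ± 0.046 (SE). The groups were far apart for both genes, and each fed group kept about the same share of its control mean, 67.1% for Sesn2 and 67.7% for Sesn3. Sesn1, a target of p53 and of FOXO, was less different, with 20.1, 20.9 and 20.5 CPM in control and 17.0, 18.1 and 18.6 CPM in fed libraries. Its groups did not overlap, but the gap between them was narrow, and its log2 fold change was -0.19 ± 0.065 (SE).

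The sestrin start regions are shown because these genes were lower together. Sesn2 lies on chromosome 4 (132492032 to 132510501, minus strand), Sesn3 on chromosome 9 (14275067 to 14333101, plus strand) and Sesn1 on chromosome 10 (41809935 to 41908424, plus strand). Sesn1 and Foxo3 are neighbours, 273416 bases apart, with Armc2 as the only protein-coding gene between them. In the windows of Sesn2 (chr4:132510407-132510706, minus strand) and Sesn3 (chr9:14276051-14276350, plus strand) capitals mark the CCAAT box on either strand, and in the first of the Sesn1 windows (chr10:41810324-41810623, plus strand) they mark the FOXO motif GTAAACA, here on the reverse strand.
Sesn2: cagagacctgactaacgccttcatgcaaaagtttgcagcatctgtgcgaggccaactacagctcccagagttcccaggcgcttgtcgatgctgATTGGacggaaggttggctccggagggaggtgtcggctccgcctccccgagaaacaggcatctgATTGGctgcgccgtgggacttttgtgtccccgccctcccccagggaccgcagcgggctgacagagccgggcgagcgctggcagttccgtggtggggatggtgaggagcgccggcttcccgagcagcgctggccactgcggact
Sesn3: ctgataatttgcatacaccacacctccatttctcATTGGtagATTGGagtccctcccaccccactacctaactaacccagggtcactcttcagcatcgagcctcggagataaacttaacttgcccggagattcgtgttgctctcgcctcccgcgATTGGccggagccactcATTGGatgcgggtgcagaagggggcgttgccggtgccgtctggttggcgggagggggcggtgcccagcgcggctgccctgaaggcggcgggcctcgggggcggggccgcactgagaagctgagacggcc
Sesn1: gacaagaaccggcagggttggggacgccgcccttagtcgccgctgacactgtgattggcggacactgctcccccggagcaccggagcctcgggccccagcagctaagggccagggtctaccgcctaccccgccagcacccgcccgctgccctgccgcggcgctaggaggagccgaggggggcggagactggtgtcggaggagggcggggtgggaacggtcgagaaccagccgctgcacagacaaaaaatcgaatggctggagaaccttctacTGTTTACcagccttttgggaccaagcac
The Sesn2 window holds 2 CCAAT boxes and the Sesn3 window 4, and 37.4% of all windows hold at least 1. The windows of Foxo1 (3), Ddit4 (2), Irs2 (2) and Klf15 (1) and each Sesn1 window (1) hold it too, and that of Foxo3 does not. The FOXO motif in Sesn1 begins 23 bases into the transcript, counted from 1 at the start site. This motif is in 3.65% of all windows. These letters are not in the second Sesn1 window, and they are in none of the windows of Ddit4, Sesn2, Sesn3, Foxo1, Foxo3, Irs2 and Klf15.

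Deptor and Irs2 differed least between the groups. Deptor had 25.4, 24.6 and 24.3 CPM in control and 23.6, 22.5 and 20.8 CPM in fed libraries. All fed values were below all control values, but the highest fed and lowest control value were close, and the log2 fold change was -0.15 ± 0.063 (SE). Irs2, the adaptor that links the insulin and IGF1 receptors to PI3K, had 12.3, 15.4 and 14.4 CPM in control and 15.8, 13.3 and 13.1 CPM in fed libraries. Its groups overlapped, with a log2 fold change of -0.00 ± 0.092 (SE).

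Klf15, a zinc finger factor that responds to glucocorticoids, had the lowest CPM of the 10, a scale that does not account for gene length. It had 5.33, 6.05 and 6.48 CPM in control and 4.71, 4.28 and 4.14 CPM in fed libraries, from 93 to 128 counts each, a log2 fold change of -0.44 ± 0.12 (SE). The groups did not overlap, and the standard error was the largest among the 10 genes. Its start region (chr6:90462326-90462625, plus strand) is shown because it held the most E-boxes, CACGTG, in these windows, marked by capitals.
Klf15: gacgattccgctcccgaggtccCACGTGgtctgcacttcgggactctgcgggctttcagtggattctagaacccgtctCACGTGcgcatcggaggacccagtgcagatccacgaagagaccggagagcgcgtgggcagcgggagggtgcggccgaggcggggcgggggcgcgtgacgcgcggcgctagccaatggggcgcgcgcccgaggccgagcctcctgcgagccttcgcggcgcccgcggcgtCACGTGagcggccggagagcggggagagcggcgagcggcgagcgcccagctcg
The E-box was found 3 times there and once in the Irs2 window, against 7.15% of all windows with at least 1. Every E-box also holds ACGTG on each strand, so it counts as a hypoxia core as well.

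Among the FOXO genes, Foxo3 and Foxo4 were lower and Foxo1 was higher in fed cells. Foxo3, the most abundant of them, had 72.1, 71.1 and 67.3 CPM in control and 57.3, 54.1 and 57.8 CPM in fed libraries, a log2 fold change of -0.32 ± 0.045 (SE). Foxo4 had 26.8, 26.7 and 25.7 CPM in control and 22.8, 19.5 and 20.2 CPM in fed libraries, a log2 fold change of -0.34 ± 0.066 (SE). Foxo1 had 24.3, 23.2 and 24.5 CPM in control and 29.3, 28.1 and 27.7 CPM in fed libraries, a log2 fold change of 0.24 ± 0.058 (SE). None of these groups overlapped. Foxo1 is also expressed in lymphocytes. The thymocyte markers Cd8a and Dntt, with no count in control, had 1 to 3 and 1 to 5 counts in the fed libraries, against 592 to 628 counts of Foxo1 itself, and their part in its level was not tested. Exons of Foxo1 share 674 bases with Gm20402 on the opposite strand, and the strand setting of the counting is not given. Exons of Deptor likewise share 303 bases with Gm9920 and those of Irs2 162 with 9530052E02Rik, both on the opposite strand.

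Levels of different genes were compared as CPM per kilobase of exon. In control cells Ddit4 was highest at 51.3 ± 1.29, followed by Sesn2 at 14.3 ± 0.316, Foxo3 at 9.27 ± 0.330, Foxo4 at 7.57 ± 0.171, Sesn3 at 5.50 ± 0.159 and Sesn1 at 5.15 ± 0.0961 (SD, n = 3). Deptor at 2.79 ± 0.0650 and Foxo1 at 2.77 ± 0.0840 overlapped, as did Irs2 at 2.22 ± 0.248 and Klf15 at 2.13 ± 0.208. The other 7 pairs of neighbours in this order did not overlap in control. Ddit4 kept the first place in fed cells, at 20.7 ± 0.989. On this length Sesn3 and Sesn1 changed places there, as did Foxo1 and Deptor. With the longest annotated transcript as the length, in place of all exons, Sesn3 stood above Foxo4 and Klf15 above Irs2 in control. Sesn3 has 15269 bases over all exons and 9125 in its longest transcript. By the longest transcript Sesn3 stayed above Sesn1 in fed cells too, so their change of places holds only for the length over all exons.

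**Figure D2:**
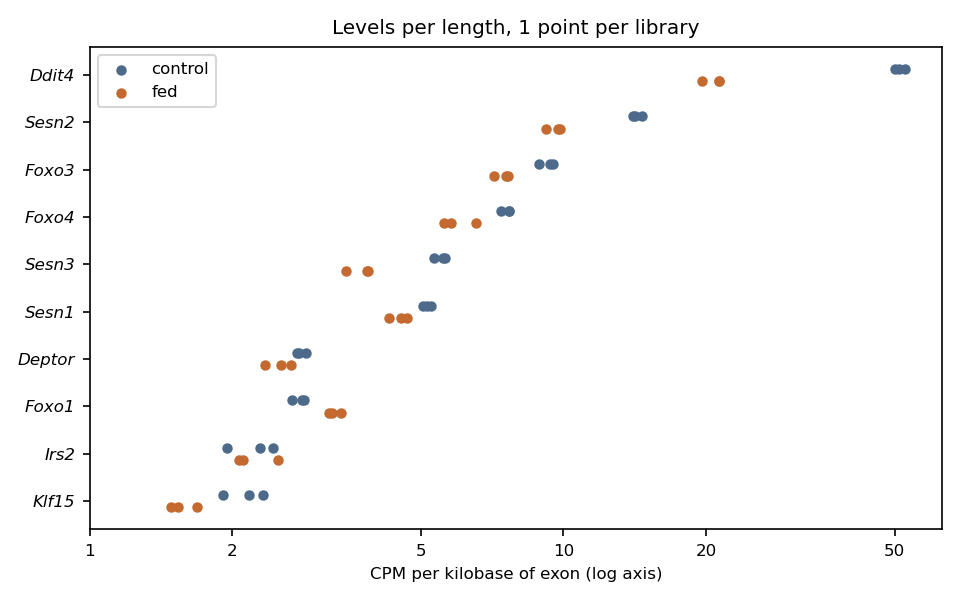
CPM per kilobase of exon (horizontal log axis) of the 10 genes, with 1 point per library for 3 control and 3 fed libraries, in the order of the control means. Ddit4 leads in both groups, at 51.3 in control and 20.7 in fed cells. The pairs Sesn3 and Sesn1, and Deptor and Foxo1, change order between the groups, the sestrin pair only with this length.

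Within each family the mixture shifted. The shares do not depend on how libraries are scaled, but they do depend on the gene lengths used, and the summed levels depend on both. On the per-kilobase scale Foxo1 made up 14.03%, 13.6% and 14.8% of the summed FOXO level in control and 19.4%, 20.3% and 19.2% in fed libraries. Foxo3 went from 47.2% ± 0.596 to 44.6% ± 1.33 and Foxo4 from 38.6% ± 0.209 to 35.8% ± 1.41 (SD, n = 3). The summed FOXO level was 19.6 ± 0.464 in control and 16.7 ± 0.758 in fed cells. The summed sestrin level was 24.9 ± 0.454 in control and 17.8 ± 0.525 in fed cells. The share of Sesn1 in it went from 20.6% ± 0.212 to 25.3% ± 0.465 and that of Sesn2 from 57.3% ± 0.409 to 53.8% ± 0.920. The share of Sesn3, at 22.1% ± 0.592 in control and 20.9% ± 1.30 in fed cells, overlapped between the groups.

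Genes known to be transcribed by FOXO factors mostly fell in fed cells. Of 28 listed, 23 were tested, and 16 fell, 3 rose and 4 did not pass edgeR's quasi-likelihood test at a Benjamini-Hochberg adjusted p under 0.05. Their median log2 fold change was -0.24, beside -0.01 over all genes, of which 19.0% fell and 20.5% rose. The list was put together with earlier results of these data known, and some of its genes also answer to other pathways, such as Cdkn1a and Bbc3, which p53 induces.

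Fbxo32, the ubiquitin ligase atrogin-1 of muscle wasting, had 88.6, 84.3 and 76.8 CPM in control and 42.3, 41.7 and 43.0 CPM in fed libraries. All fed values lay far below all control values, and edgeR gave a log2 fold change of -0.98 with an adjusted p of 3.13e-11. Ccng2, an atypical cyclin that slows the cell cycle, fell from 74.1 ± 0.693 to 52.6 ± 1.80 CPM (SD, n = 3, edgeR adjusted p = 1.99e-08). Bcl2l11, which encodes the cell-death protein BIM, fell from 25.5 ± 1.02 to 17.6 ± 1.05 CPM (edgeR adjusted p = 1.87e-06). Cdkn1b, the CDK inhibitor p27, fell from 49.8 ± 3.37 to 40.1 ± 0.889 CPM (edgeR adjusted p = 8.23e-05). In none of these 4 genes did the groups overlap.

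By role, 5 of 6 cell-cycle brakes fell, with Cdkn1a, the CDK inhibitor p21, and Rbl2, a pocket protein, at -0.22 and -0.20 on the log2 scale. All 3 tested genes of cell death fell, among them Bbc3, which encodes PUMA, at -0.86, and the repressor Bcl6 at -0.28. All 3 tested genes of protein breakdown and autophagy fell, with the autophagosome gene Map1lc3b at -0.25. Gabarapl1, of the same role, did not pass when control replicate 2 (edgeR adjusted p = 0.144) or fed replicate 3 (0.135) was left out. With all libraries, it did not pass by another test, DESeq2 (adjusted p = 0.0730), or by edgeR scaled with library totals only (0.0809). Of 3 antioxidant genes, Sod2, the mitochondrial superoxide dismutase, and Sepp1, a selenium carrier, fell by 0.22 and 0.39, and catalase did not pass. The insulin receptor gene Insr fell by 0.36 and the PI3K inhibitor gene Pik3ip1 by 0.32. The genes that rose were Pdk4, which restrains pyruvate dehydrogenase, at 0.36, the transcriptional coregulator Cited2 at 0.20 and the flow-responsive factor Klf2 at 0.18. Klf2 did not pass when control replicate 2 (edgeR adjusted p = 0.141) or fed replicate 3 (0.140) was left out. The growth-arrest gene Gadd45a did not pass without control replicate 2 (edgeR adjusted p = 0.0581) or fed replicate 1 (0.0763). By DESeq2 with all libraries, neither Klf2 (adjusted p = 0.0522) nor Gadd45a (0.0526) passed. Txnip, which restrains glucose uptake, had 101 ± 4.02 CPM in control and 94.0 ± 3.92 CPM in fed cells (edgeR adjusted p = 0.0737).

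**Figure D3:**
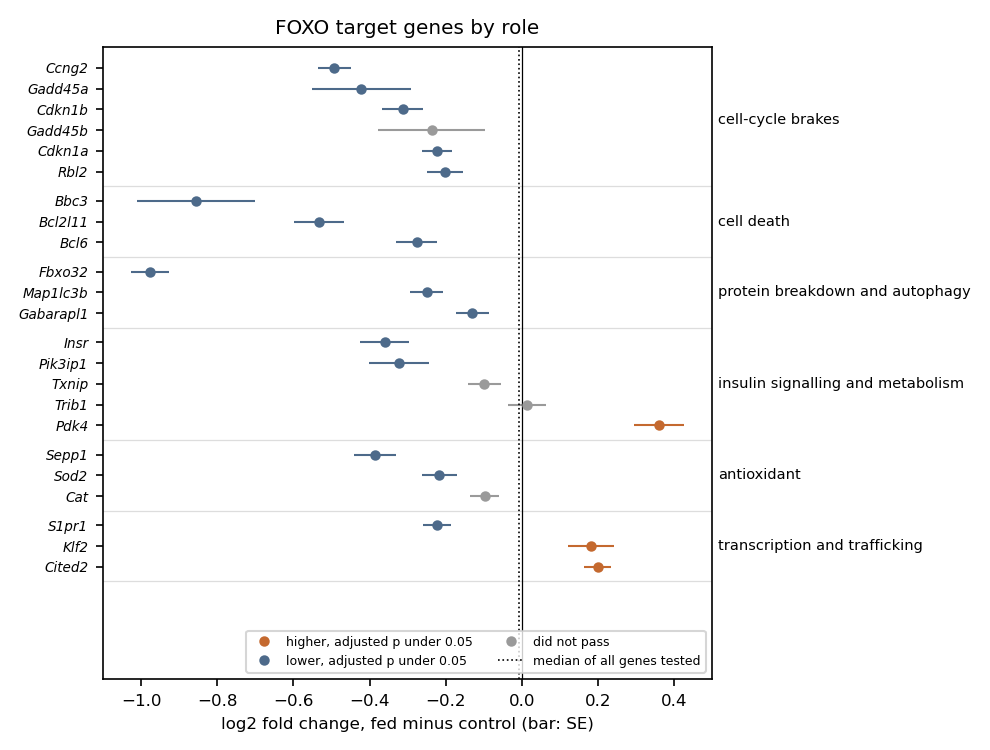
Log2 fold change of fed against control (horizontal axis, points with SE bars) for the 23 tested FOXO target genes grouped by role, blue where lower, orange where higher and grey where the test was not passed. Of the 23, 16 lie on the lower side as called genes, with Fbxo32 at -0.98, and Pdk4, Cited2 and Klf2 are the called genes on the higher side.

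Genes of the insulin, PI3K and AKT signal upstream of FOXO went both ways. Of those tested 36.7% rose and 23.3% fell, beside 20.5% and 19.0% of all genes tested. Of 34 listed, 30 were tested, and 11 rose, 7 fell and 12 did not pass (median log2 fold change 0.08). The 3 regulatory subunits of PI3K all fell. Pik3r1, with the highest CPM of them, had 179, 173 and 161 CPM in control and 116, 114 and 119 CPM in fed libraries. Its log2 fold change by edgeR was -0.56, with an adjusted p of 2.95e-09. The groups stood far apart, and Pik3r3 and Pik3r2 had log2 fold changes of -0.45 and -0.20. Of the catalytic subunits, Pik3cb rose from 8.15 ± 1.43 to 13.2 ± 0.738 CPM (edgeR adjusted p = 2.05e-05) and Pik3ca fell by 0.21 on the log2 scale.

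Akt1 rose from 366 ± 18.4 to 419 ± 9.54 CPM (edgeR adjusted p = 0.000511), and Akt2 had a log2 fold change of 0.00 that did not pass. Sgk1, an AKT-related kinase that also phosphorylates FOXO3, rose from 125 ± 3.87 to 163 ± 10.7 CPM (edgeR adjusted p = 1.29e-06). Skp2, part of a ubiquitin ligase that targets FOXO1 and p27, rose by 0.43 on the log2 scale. Of 6 genes for 14-3-3 proteins, 3 rose and 3 did not pass, led by Ywhah, from 136 ± 4.86 to 178 ± 8.12 CPM (edgeR adjusted p = 2.68e-07). Trib3, a pseudokinase that binds AKT, fell by 0.82.

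**Figure D4:**
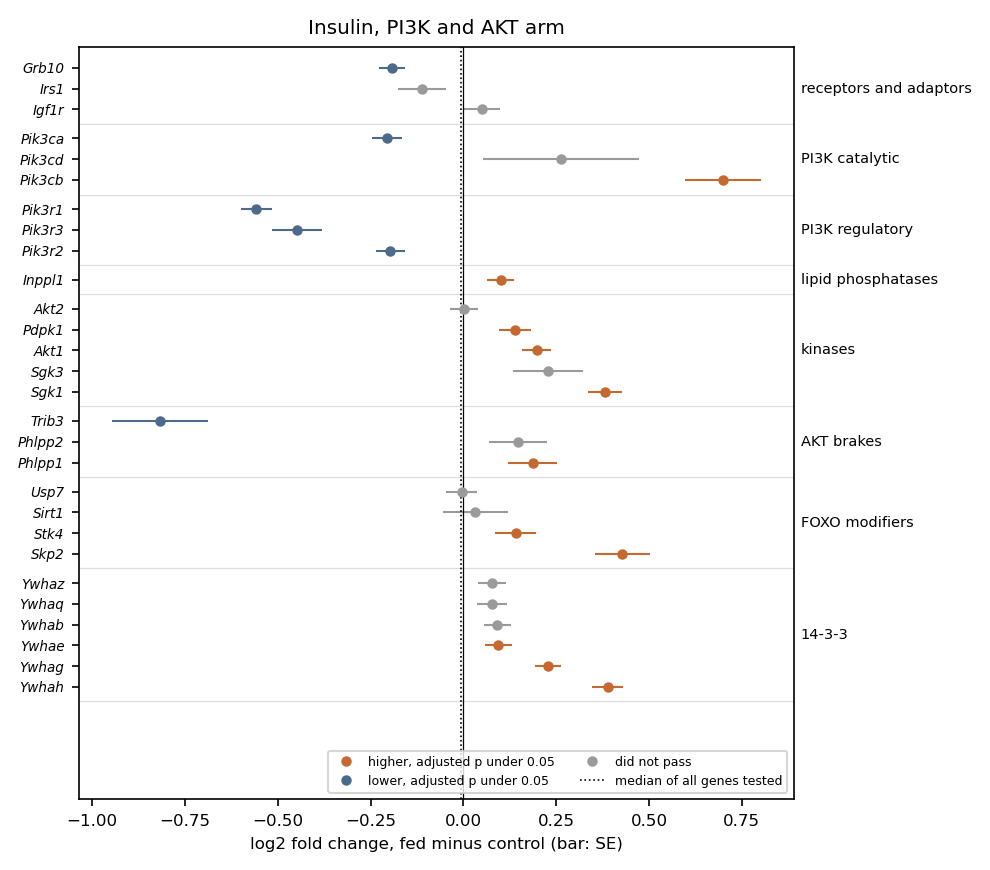
Log2 fold change of fed against control (horizontal axis, points with SE bars) for 28 of the 30 tested genes of the insulin, PI3K and AKT arm by role, blue where lower, orange where higher and grey where the test was not passed. The regulatory subunits of PI3K are all lower, from -0.56 to -0.20, and the kinase genes that passed are higher.

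Genes of the mTOR complexes and their switches showed no common direction. Of those tested 24.3% rose and 24.3% fell, beside 20.5% and 19.0% of all genes tested. Of 38 listed, 37 were tested, 9 rose, 9 fell and 19 did not pass, with a median log2 fold change of 0.00. Leaving out a library moved these counts to between 4 and 9 higher and between 5 and 10 lower, with 4 and 5 without control replicate 1 and 5 lower without fed replicate 3. Mtor itself had 75.6 ± 4.63 CPM in control and 74.9 ± 1.85 CPM in fed cells (edgeR adjusted p = 0.839). Tsc2, through which DDIT4 acts, had 115 ± 4.67 and 109 ± 1.58 CPM (edgeR adjusted p = 0.148). Its partner Tsc1 was called lower, at -0.18 on the log2 scale. Tsc1 did not pass when control replicate 1 (edgeR adjusted p = 0.186), fed replicate 1 (0.0562) or fed replicate 3 (0.128) was omitted. With all libraries, Tsc1 did not pass by DESeq2 (adjusted p = 0.0913) or by edgeR with library totals only (0.0656). Rptor, the scaffold of mTORC1, was called higher at 0.13. Rptor did not pass when control replicate 1 (edgeR adjusted p = 0.0935), fed replicate 1 (0.0527) or fed replicate 3 (0.0574) was omitted, or by DESeq2 with all libraries (adjusted p = 0.0807). Rheb, the GTPase that switches mTORC1 on, rose by 0.20.

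Ddit4l, the paralogue of Ddit4 also called REDD2, fell from 17.7 ± 1.09 to 14.8 ± 0.347 CPM (edgeR adjusted p = 0.00651). Of 5 GATOR2 genes, the complex that sestrins bind, Mios fell by 0.26, Sec13 rose by 0.16 and 3 did not pass, and the 3 GATOR1 genes did not pass. Castor2, the paralogue of the arginine sensor gene Castor1, fell by 0.27, and Castor1 itself did not pass (edgeR adjusted p = 0.660). Eif4e, the cap-binding factor that the 4E-BP substrates of mTORC1 hold back, rose from 65.7 ± 1.76 to 85.1 ± 5.03 CPM (edgeR adjusted p = 1.73e-06). Ulk1, the kinase that starts autophagy, fell from 74.4 ± 0.628 to 59.9 ± 2.85 CPM (edgeR adjusted p = 9.54e-06), and Lpin1, a phosphatidate phosphatase, fell from 20.1 ± 0.304 to 14.6 ± 0.357 CPM (edgeR adjusted p = 1.09e-05). Prr5, a subunit of mTORC2, rose from 9.85 ± 0.546 to 13.9 ± 0.351 CPM (edgeR adjusted p = 4.64e-05). Its paralogue Prr5l had the widest fold of the list, 1.28 on the log2 scale, but rested on 3 to 9 counts in control and 12 to 23 in fed libraries (edgeR adjusted p = 0.0203). Prr5l did not pass by DESeq2 (adjusted p = 0.0706) or when control replicate 1 (0.113), control replicate 2 (0.0517) or fed replicate 2 (0.138) was omitted from the edgeR test, and its log2 fold change then ranged from 0.92 to 1.34.

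**Figure D5:**
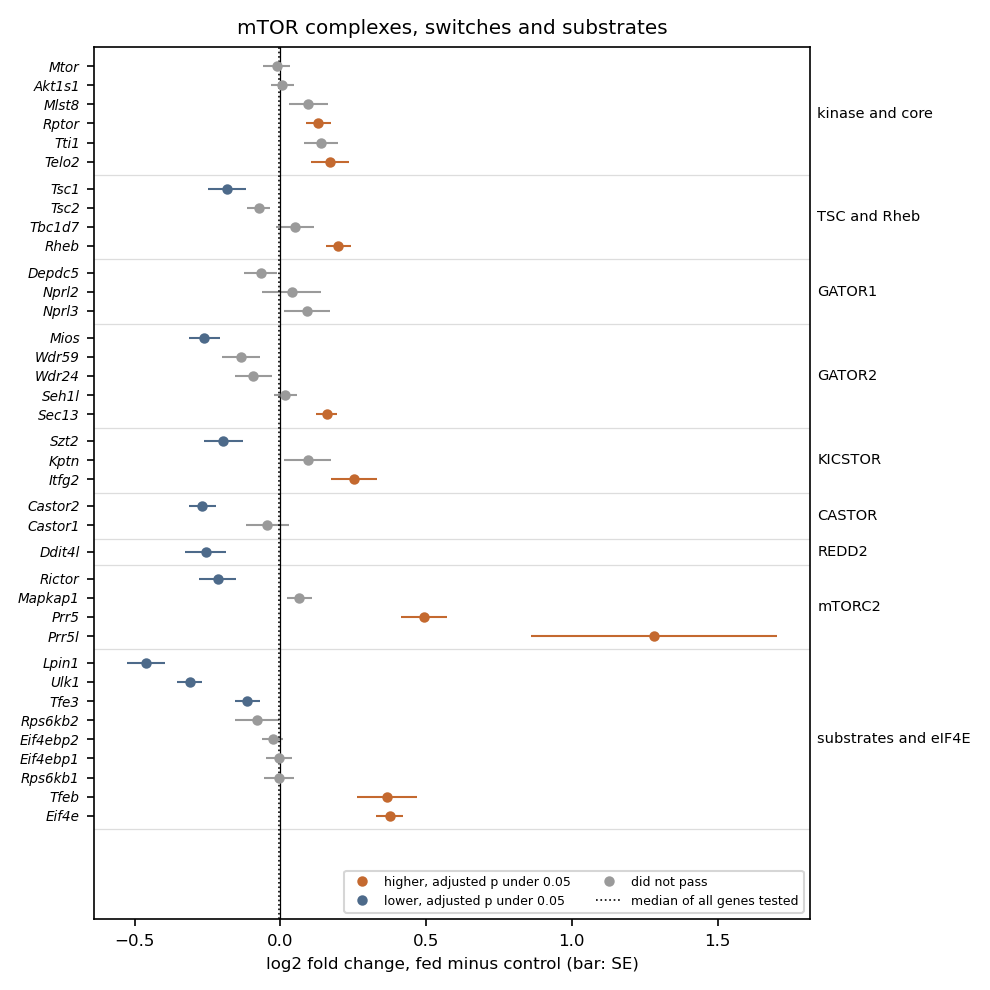
Log2 fold change of fed against control (horizontal axis, points with SE bars) for the 37 tested genes of the mTOR complexes, switches and substrates by role, blue where lower, orange where higher and grey where the test was not passed. Called genes lie on both sides, 9 each, and Mtor, Tsc2 and the GATOR1 genes did not pass.

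Ddit4, Klf15 and the sestrins are known to be induced by low oxygen, ATF4, p53 or glucocorticoids, and the other targets of these inputs were counted beside them. Over all genes tested, 19.0% fell and 20.5% rose. Of 18 genes listed for the hypoxia response, 16 fell and 2 did not pass. The genes Hif1a, Epas1 and Arnt, which encode subunits of hypoxia factors, were counted among them. The count that fell was 15 when control replicate 2 or fed replicate 3 was omitted, where Epas1 did not pass. Their median log2 fold change was -0.33. Hif1a, the oxygen-regulated subunit of the hypoxia factor, was itself lower, with 489, 470 and 471 CPM in control and 344, 341 and 342 CPM in fed libraries (edgeR adjusted p = 2.62e-09). Bnip3l, a receptor for the removal of mitochondria, fell by 0.52, Pdk1, which restrains pyruvate dehydrogenase, by 0.42 and the collagen prolyl hydroxylase gene P4ha2 by 0.38 on the log2 scale. Since the oxygen level of the control wells is not stated, feeding and oxygen cannot be told apart for these genes or for Ddit4. Of 20 genes listed as ATF4 targets, with Atf4 itself counted among them, 11 fell, 8 did not pass and 1 rose (2 without control replicate 3). Their median was -0.19. The mitochondrial folate enzyme gene Aldh1l2 fell by 1.01 and the lipoprotein receptor gene Vldlr by 0.68. Mthfd2, another mitochondrial folate enzyme gene, was the one that rose (edgeR adjusted p = 0.00595). The stress-induced factor gene Atf5 fell from 299 ± 19.0 to 183 ± 4.36 CPM (edgeR adjusted p = 2.35e-10) and Cebpb from 38.1 ± 2.54 to 27.7 ± 1.18 CPM (edgeR adjusted p = 3.42e-06). The mRNA of Atf4 was called lower by a small margin, at -0.12 on the log2 scale (edgeR adjusted p = 0.0484). Atf4 did not pass when control replicate 1 (edgeR adjusted p = 0.321) or any 1 fed replicate (0.0779, 0.170 and 0.104) was omitted. With all libraries, it did not pass by DESeq2 (adjusted p = 0.0906) or limma-voom (0.0654). Nor did it pass by edgeR without robust estimation (adjusted p = 0.0616) or with library totals only (0.130).

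The targets of p53 and of the glucocorticoid receptor were mixed. Of the p53 list 26.3% rose and 21.1% fell, and of the glucocorticoid list 15.4% and 30.8%. Over all genes tested the shares were 20.5% and 19.0%. Of 19 tested genes listed as p53 targets, with Trp53 itself counted among them, 5 rose and 4 fell. The count that fell was 2 when control replicate 1, control replicate 2 or fed replicate 1 was omitted. Trp53inp1, a p53 target that promotes autophagy, fell from 31.2 ± 2.94 to 19.0 ± 1.30 CPM (edgeR adjusted p = 1.84e-07), while the kinase gene Plk2 rose from 22.9 ± 1.35 to 30.7 ± 1.23 CPM (edgeR adjusted p = 1.45e-05). The nuclease gene Aen rose by 0.24, the kinase gene Plk3 by 0.71 and Trp53 itself by 0.15 on the log2 scale. Of 13 tested genes listed as glucocorticoid targets, with the receptor gene Nr3c1 counted among them, 2 rose and 4 fell. The count that rose was 1 when either control replicate 1 or fed replicate 1 was left out. Fkbp5, a chaperone of the glucocorticoid receptor, rose from 30.8 ± 0.579 to 45.8 ± 0.878 CPM (edgeR adjusted p = 2.02e-08). The metallothionein genes Mt1 and Mt2 fell by 0.37 and 0.45, Klf9 fell by 0.22, and the receptor gene Nr3c1 had 118 ± 1.87 CPM in control and 119 ± 3.33 CPM in fed cells (edgeR adjusted p = 0.733). The part of each of these inputs in the level of Ddit4, Klf15 or the sestrins was not tested.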

How the data were processed

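Stranded libraries of polyadenylated RNA were made from 200 ng of total RNA, per the labels' protocols. The authors deposited raw read counts for each gene. The submitters' processing notes name STAR 2.6.0c, Subread 1.6.1 (featureCounts), Trimmomatic 0.36, MultiQC 1.5 and build GRCm38. For the annotation release, the strand setting and multi-mapping reads, the setting is not given in the sources used here. Total counts per library are in the report.

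Tests used edgeR 4.0.16 under R 4.3.3 (filterByExpr, TMM, robust quasi-likelihood F-test, Benjamini-Hochberg adjustment over 13092 genes, called at an adjusted p under 0.05). SEs of log2 fold changes come from the F statistic, and SDs are over libraries. The code was tested on simulated data. Libraries of a group differed by more than sampling noise and were kept apart. Gene positions and lengths are from GENCODE M21, and promoters from RefSeq; 8 of the 10 genes had a window. Castor1 and Castor2 were matched through the older symbols in the table.

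The 10 genes and all lists were chosen with earlier results of these data known. Named are the 10 genes, up to 4 called genes per list, taken by adjusted p, a panel of regulators, the gene after Ddit4 by p, and the 5 genes most like Ddit4 over libraries with a mean of at least 5 CPM. Other list members were named after their values were seen, to fill the roles. Alternatives were other normalizations, filters, DESeq2 1.42.0, limma-voom (limma 3.58.1), no robust estimation, a replicate block, an adjusted p under 0.01, and each library left out. Some genes of the lists are included in the counts and are not reported by name here.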

Additional observations from a re-analysis of the deposited data

How the results depend on the processing

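Every one of the 10 genes kept the sign of its log2 fold change under all 15 refits (other normalizations, filters and models, and each library left out), except Irs2, which ranged from -0.09 to 0.07. Ddit4 ranged from -1.33 to -1.27, Sesn2 from -0.59 to -0.54, Sesn3 from -0.59 to -0.51, Foxo3 from -0.34 to -0.28, Foxo4 from -0.41 to -0.30, Klf15 from -0.52 to -0.38 and Foxo1 from 0.22 to 0.27, all called in each. Sesn1 (-0.22 to -0.16) was called in 10 of the 15, and not with library totals only, by DESeq2, or once control replicate 2 or either of fed replicates 1 and 2 was omitted. Deptor (-0.19 to -0.10) was called in 3, with upper-quartile scaling, the replicate block, or fed replicate 1 left out. FOXO targets stayed at 14 to 19 lower and 2 or 3 higher. With library totals only, 8 p53 targets were higher and 2 lower. By DESeq2, 7 genes of the PI3K and AKT arm and 5 of the mTOR list were higher and 2 p53 targets lower. At an adjusted p under 0.01, 6 genes of the PI3K and AKT arm, 5 of the mTOR list and 1 glucocorticoid target were higher and 2 p53 targets lower. The causes were not tested. Over the fits that leave out a library, the mTOR list had 4 to 9 higher and 5 to 10 lower, glucocorticoid targets 1 to 2 higher, ATF4 targets 1 to 2 higher and p53 targets 2 to 4 lower. Same-numbered control and fed libraries deviated together weakly (correlations 0.101, 0.022 and 0.128). Pairs of different number lay between -0.115 and 0.027, the highest for control replicate 2 with fed replicate 1. The labels do not say that the numbers mark a shared source, so the main fit did not pair the samples. Whether same-numbered libraries share a source was not tested. With the replicate block 5848 genes were called (2989 higher, 2859 lower) in place of 5175 (2682 and 2493). Prr5l, with 3 to 23 counts a library, had the lowest counts among the called genes named.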
